A study of Mus musculus with 2 samples.

Results

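Among single splenic Tregs (regulatory CD4 T cells, which restrain other immune cells), a small set was singled out by 6 marker genes: Gbp2b, Socs3, Prg4, Aqp3, Gm14085 and Gm4951. A cell belonged to the set when it carried at least 1 UMI (unique molecular identifier, 1 counted RNA molecule) of at least 2 of the 6 markers and UMIs of fewer than 3 of the interferon-response genes Ifit1, Ifit3, Rsad2, Usp18 and Isg15. Cells had to show at least 500 genes, at most 10% mitochondrial UMIs and no UMI of the B cell gene Cd79a. By this rule 537 of 12953 cells belonged: 331 of 6051 in the CD25WT library and 206 of 6902 in the CD25KO library. They are called marker-bearing cells here, and all remaining filtered cells are called other cells. No cytokine and no exposure to one was measured in these libraries, so the cells are named by their rule.

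The study compared Tregs with and without an induced loss of CD25, the receptor chain for interleukin-2 that Il2ra encodes. The CD25WT mice had the genotype CD25WT/WT-tdTomato+/+-Foxp3eGFPCretERT2+/+ and the CD25KO mice CD25FL/FL-tdTomato+/+-Foxp3eGFPCretERT2+/+, so both groups carried the tdTomato reporter and a tamoxifen-inducible Cre driven from Foxp3. Both groups were given tamoxifen at 2 mg/kg intraperitoneally for 5 days, and spleens were taken 10 days after induction; ages are not stated in the labels. Live CD4+ GFP+ tdTomato+ cells were sorted, and the CD25KO cells alone were also gated as CD25lo, a step that can itself set the shares and levels that differ between the libraries. Each group is 1 library of 2 pooled spleens. There is therefore no replicate, no test and no p-value in what follows: intervals are exact 95% intervals for counting error only, and a difference between the libraries is a difference between 2 libraries.

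Socs3 encodes an inhibitor that cytokine receptors of the gp130 type induce through STAT3 and that then dampens their own signal. Gbp2b belongs to the guanylate-binding proteins and Gm4951 is a predicted gene of the immunity-related GTPases; both families are induced by interferon-gamma and act against intracellular pathogens. Prg4 encodes lubricin, a secreted glycoprotein, Aqp3 a channel for water and glycerol, and Gm14085 is a predicted gene that resembles the nucleoside transporter Slc28a2. STAT dimers bind a palindrome called the gamma-activated site (GAS), and interferon-activated complexes that hold IRF9 bind the interferon-stimulated response element (ISRE).

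Promoter sequences show which of these 2 elements stands before the genes the results turn on. The promoters of 2 markers and of 1 interferon-gamma induced GTPase are printed, each as the 250 bases before the annotated start on the gene's strand (RefSeq, GRCm38.p6), with a GAS match (TTCNNNGAA) or an ISRE match (GAAA, any 2 bases and a second GAAA, either strand) in capitals. Socs3 (chr11:117969367-117969616, minus strand) has 1 GAS match that begins 154 bases before the start, Gbp2b (chr3:142594597-142594846, plus strand) has 1 ISRE match on the opposite strand 137 bases before the start, and Igtp (chr11:58199306-58199555, plus strand) has both.
Socs3: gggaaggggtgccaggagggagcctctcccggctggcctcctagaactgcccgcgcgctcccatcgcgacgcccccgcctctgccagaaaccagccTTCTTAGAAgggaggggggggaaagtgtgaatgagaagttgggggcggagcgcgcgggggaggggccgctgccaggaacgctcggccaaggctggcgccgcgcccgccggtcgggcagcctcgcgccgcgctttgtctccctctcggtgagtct
Gbp2b: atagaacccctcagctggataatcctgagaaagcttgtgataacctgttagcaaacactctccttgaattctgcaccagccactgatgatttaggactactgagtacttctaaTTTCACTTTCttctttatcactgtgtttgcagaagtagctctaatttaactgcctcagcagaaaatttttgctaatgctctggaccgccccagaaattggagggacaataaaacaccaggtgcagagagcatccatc
Igtp: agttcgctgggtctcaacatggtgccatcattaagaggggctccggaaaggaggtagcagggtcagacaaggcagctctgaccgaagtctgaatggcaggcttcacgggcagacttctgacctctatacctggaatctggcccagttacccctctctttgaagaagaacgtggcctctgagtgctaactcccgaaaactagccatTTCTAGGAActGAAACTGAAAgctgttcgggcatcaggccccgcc
Aqp3 had neither match, and no promoter was matched for Prg4, Gm14085 or Gm4951. Over all genes with a promoter in the table, 8.13% of 27025 had a GAS match and 3.46% an ISRE match in this window.

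In the GTPase promoters both elements were more frequent than over all genes. Of the 12 listed interferon-gamma induced GTPase genes with a promoter in the table, 8 had a GAS match and 11 an ISRE match. In Igtp the GAS and the ISRE stand 2 bases apart. That order and spacing, searched after the single matches had been seen, occurred in 5 of 32851 promoters (0.0152%), and all 5 belong to the GTPase list, on chromosome 11. Igtp lies near Irgm2, and Tgtp1, Tgtp2 and Gm12185 lie near one another. The promoters of Igtp and Irgm2, and those of Tgtp2 and Gm12185, are near copies beyond the match, so the 5 are not independent matches. The matches are printed with the GAS and ISRE letters in capitals because they differ at only a few bases.
Igtp, chr11:58199511-58199531: TTCTAGGAActGAAACTGAAA
Irgm2, chr11:58214902-58214922: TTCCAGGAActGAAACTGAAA
Tgtp1, chr11:48992314-48992334: TTCCAGGAAtcGAAACTGAAA
Tgtp2, chr11:49064273-49064293: TTCCAGGAAtcGAAACCGAAA
Gm12185, chr11:48927248-48927268: TTCCAGGAAtaGAAAGTGAAA
A match describes the letters only; binding was not measured.

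Depth was similar enough to compare levels but not detection. The filtered cells held 35085712 UMIs in CD25WT and 35465091 in CD25KO. The median was 5604 UMIs per marker-bearing cell and 5199 per other cell in CD25WT, and 4806 and 4132.5 in CD25KO, so deeper cells were somewhat more likely to meet the rule. Levels are therefore given as summed UMIs scaled to 1e6 (CPM, counts per 1e6 UMIs), and shares are given also after each cell was thinned to 2000 UMIs. The libraries shared 107 barcodes, 2 of them in marker-bearing cells of either library. Doublets were not called; 22 and 12 marker-bearing cells lay in the top 5% of UMIs of their library.

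The marker-bearing cells were T cells of the sorted kind. Cd3d was detected in 98.2% of them in CD25WT and 98.1% in CD25KO, and Foxp3, a lowly detected transcript, in 19.6% (15.5 to 24.3) and 10.2% (6.42 to 15.2), against 15.7% and 9.98% of other cells. The cells left out for a Cd79a UMI, at medians of 5250 and 4566 UMIs, showed Foxp3 in 13.6% (6.04 to 25) of 59 cells and 2.00% (0.0506 to 10.6) of 50 cells, and Cd3d in 69.5% and 56.0%, so they do not serve as a pure background of cells without T cell RNA. Their Foxp3 intervals overlap those of the marker-bearing cells. Cd8a, Ms4a1 and Ncr1, which define CD8 T, B and natural killer cells, had no UMI in any marker-bearing cell (up to 1.11% and 1.77% of cells by the exact interval). Cd8b1, the other CD8 chain, had a UMI in 3.93% (2.11 to 6.62) and 6.31% (3.4 to 10.5) of them, against 5.35% and 5.21% of other cells, and the myeloid gene Lyz2 in 2 CD25WT cells.

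The shares of marker-bearing cells and of their single markers describe what the rule chose. Marker-bearing cells were 5.47% (4.91 to 6.07) of the CD25WT library and 2.98% (2.60 to 3.41) of the CD25KO library, a ratio of 1.83. After thinning, the shares were 1.53% (1.23 to 1.87) and 1.10% (0.864 to 1.39), a ratio of 1.38, with 88 and 372 shallower cells left out. The intervals overlapped after thinning and did not overlap before. The effect of the CD25lo gate on these shares cannot be told apart from that of the genotype. At full depth 5 markers were detected less often in CD25KO, and Gm4951 went the other way.

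**Figure D1:**
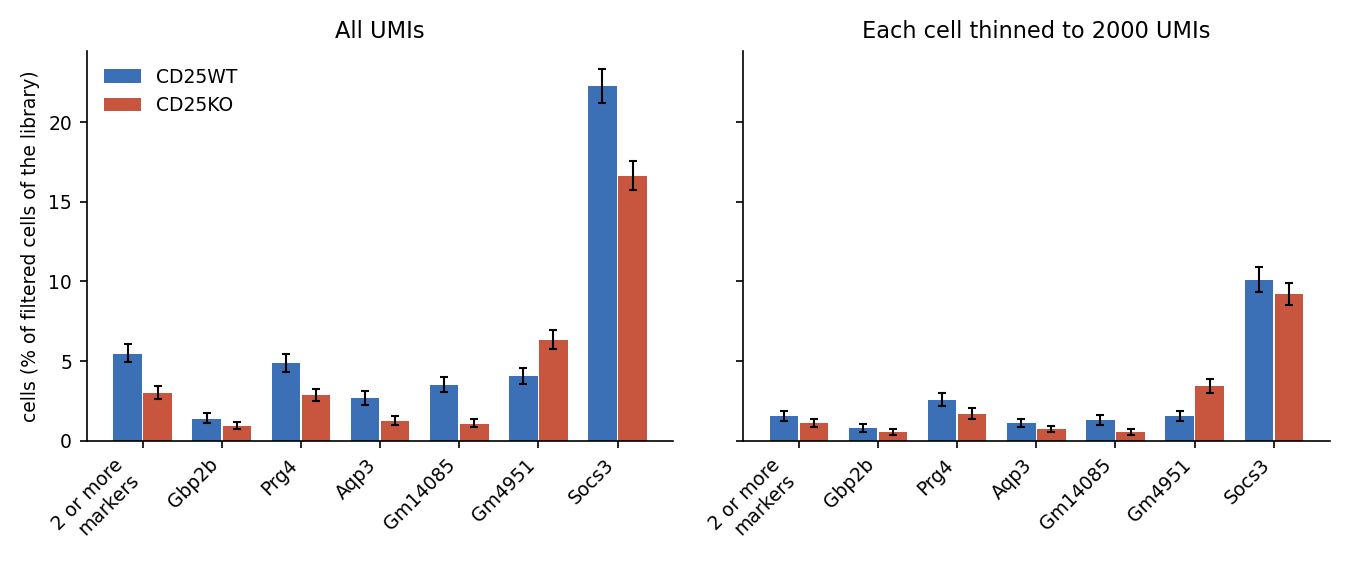
Share of filtered cells (%, y axis) that met the rule or carried at least 1 UMI of each marker (x axis), in CD25WT (blue) and CD25KO (red), with all UMIs (left) and after thinning each cell to 2000 UMIs (right). Bars start at 0 and lines are exact binomial 95% intervals. Gm4951 stands higher in CD25KO in both panels, and Socs3 is the most often detected marker.

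Socs3, the inhibitor, was detected in 22.3% of CD25WT and 16.6% of CD25KO cells, but in 10.1% and 9.20% of thinned cells. Cells with a Cd79a UMI had Socs3 in 20.3% and 18.0%, with intervals that include the Treg shares. Gm4951 was detected in 4.05% of CD25WT and 6.33% of CD25KO cells and, thinned, in 1.53% and 3.42%. It was the only marker detected more often in CD25KO, at either depth. Prg4 was detected in 4.86% and 2.84%, Gm14085 in 3.49% and 1.07%, Aqp3 in 2.66% and 1.26%, and Gbp2b in 1.39% and 0.927%. Gm14085 shares 61.6% of the 50-base stretches in its last 500 transcript bases with Slc28a2, so its count is uncertain; Gbp2b and Gm4951 shared none. In Cd79a cells Gbp2b was not detected, with upper exact limits of 6.06% of 59 and 7.11% of 50 cells, and 5 and 2 of these cells would have met the marker rule.

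The mix of markers differed between the libraries. Socs3 was present in 76.1% (71.2 to 80.6) of marker-bearing cells in CD25WT and 79.1% (72.9 to 84.5) in CD25KO. Prg4 was present in 45.3% (39.9 to 50.9) and 29.1% (23 to 35.8), whereas Gm4951 was present in 29.6% (24.7 to 34.8) and 57.8% (50.7 to 64.6). The most frequent pair was Socs3 with Prg4 in CD25WT, in 73 of 331 cells, and Socs3 with Gm4951 in CD25KO, in 83 of 206 cells. Most cells sat at the edge of the rule: 268 and 186 carried exactly 2 markers, and 63 and 20 carried 3 or more. Just outside the rule lay 1445 and 1402 cells with exactly 1 marker and few interferon genes. The rule on interferon genes removed 23 and 31 cells that had 2 or more markers.

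Gbp2b and Prg4 were found in the same cells in both libraries. Of cells with Gbp2b, 36.9% in CD25WT and 26.6% in CD25KO also carried Prg4, against 4.41% and 2.62% of cells without Gbp2b. In thinned cells these shares were 23.9% and 17.6%, against 2.38% and 1.60%. Gm4951 was likewise found in 16.7% and 18.8% of Gbp2b cells, against 3.87% and 6.22% of the rest. Of Prg4 cells 8.16% carried Gm4951 in CD25WT, against 3.84% of the rest, and 5.10% in CD25KO, against 6.37%. These are descriptions of 1 library each, with only 84 and 64 Gbp2b cells.

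Genes outside the rule also differed between marker-bearing and other cells. Called means at least 1.5-fold, among the 7064 genes whose mean over the 4 sums reached 10 CPM, with the rule's genes left out. In CD25WT 186 genes were higher (2.63%) and 213 lower (3.02%), and in CD25KO 218 were higher (3.09%) and 510 lower (7.22%). The excess of lower genes in CD25KO was smaller under other scalings. There, TMM scaling gave 282 higher and 426 lower, and median-of-ratios scaling 294 and 406. Ribosomal protein UMIs were 35.6% of the total in marker-bearing and 31.6% in other cells of CD25KO, against 40.3% and 40.2% in CD25WT. Leaving ribosomal and mitochondrial transcripts out of the total gave 319 higher and 395 lower in CD25KO. In both libraries together, 49 genes were higher (0.694%) and 88 lower (1.25%). The median log2 ratio over all these genes was 0.01 in CD25WT and -0.07 in CD25KO. Counts at this threshold can include genes that pass by counting error, so the groups and genes below are described with their intervals.

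Interferon-gamma induced GTPases were higher in marker-bearing cells, which the rule chose in part by the GTPase genes Gbp2b and Gm4951. The values below therefore describe that choice in part. All 16 measured members of the list, which leaves out the markers Gbp2b and Gm4951, were above 0 on the log2 scale in both libraries. Of these, 9 were at least 1.5-fold higher in both: Gbp2, Gbp3, Gbp4, Gbp6, Gbp10, Irgm1, Tgtp2, Igtp and Iigp1. Single libraries gave 9 (CD25WT) and 13 (CD25KO). Among the 8658 genes whose mean reached 5 CPM, the minimum used for lists, 3.67% were that much higher in CD25WT, 4.31% in CD25KO and 0.901% in both. The list's median was 0.64 in CD25WT and 0.84 in CD25KO. In the 180 (CD25WT) and 64 (CD25KO) marker-bearing cells with neither Gbp2b nor Gm4951, the medians were 0.20 and 0.42. There 2 and 2 of the 16 were at least 1.5-fold higher, and no share over all genes is given for these smaller sets. The summed level of the list was 1586 CPM in marker-bearing and 980 CPM in other cells of CD25WT, and 2159 and 1185 CPM in CD25KO.

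Iigp1, an effector GTPase that disrupts the vacuoles of intracellular parasites, stood at 304 CPM in marker-bearing cells and 117 CPM in other cells of CD25WT. In CD25KO it stood at 494 and 210 CPM. These are log2 ratios of 1.38 (1.26 to 1.5) and 1.24 (1.11 to 1.36), and marker-bearing cells were higher in either library. Igtp, a regulatory GTPase of the same family whose promoter is printed above, stood at 216 against 120 CPM in CD25WT and 219 against 123 CPM in CD25KO, ratios of 0.85 (0.71 to 0.99) and 0.83 (0.65 to 1.01). Its level was thus nearly the same in both libraries. Gbp2, a guanylate-binding protein, stood at 88.8 against 55.3 CPM and at 142 against 66.9 CPM, ratios of 0.68 (0.46 to 0.90) and 1.09 (0.86 to 1.32). Irgm2 had a ratio of 0.58 (0.21 to 0.94) in CD25WT and 1.48 (1.12 to 1.82) in CD25KO. At the lower end, Gbp8 had 0.45 (0.14 to 0.76) and 0.34 (-0.06 to 0.71). All the compared 3' sequence of Gbp10 is also found in Gm43302 or Gbp6, and all that of Tgtp2 in Tgtp1, so the counts of Gbp10 and Tgtp2 are uncertain.

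**Figure D2:**
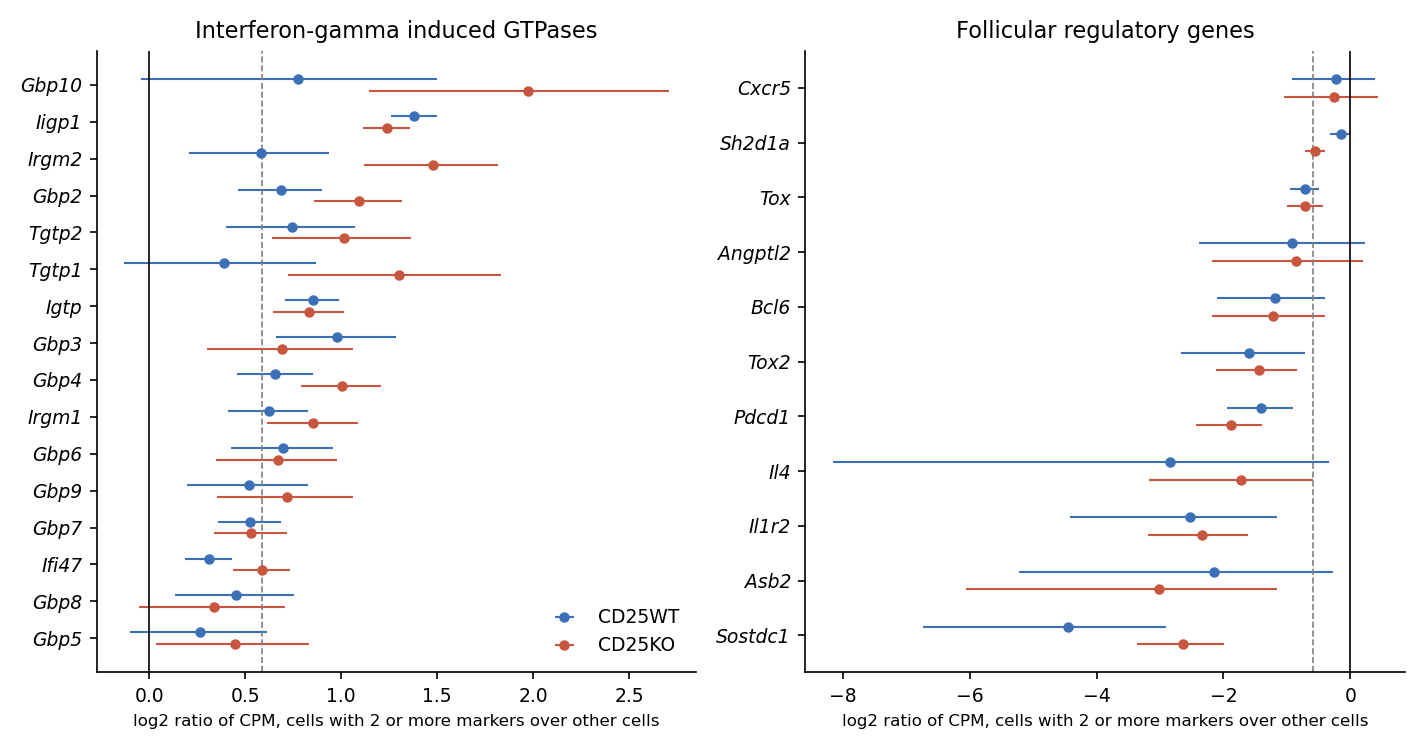
Log2 ratio of CPM in marker-bearing cells over other cells (x axis) for each measured gene (y axis) of the interferon-gamma induced GTPase list (left) and the follicular regulatory list (right), in CD25WT (blue) and CD25KO (red); lines are 95% counting intervals and the dashed line is 1.5-fold. All 16 GTPases lie above 0 and all 11 follicular genes below 0 in both libraries, with wide intervals for genes of few UMIs such as Il4 and Asb2.

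Other interferon targets did not move as a group. Of 26 listed antigen-presentation genes and other interferon-gamma targets, none was 1.5-fold higher in both libraries, and the list's medians were -0.03 and 0.00. Irf1, an interferon-induced transcription factor, had ratios of 0.38 (0.20 to 0.55) and 0.53 (0.32 to 0.72). Cxcl10, a chemokine that attracts CXCR3-bearing cells, was lower, at 2.82 against 18.5 CPM in CD25WT and 39.0 against 83.9 CPM in CD25KO; 18 of its 46 UMIs in CD25KO marker-bearing cells came from 1 cell. Of 34 type I interferon genes outside the rule, Samhd1, a nucleotide hydrolase, was 1.5-fold higher in both, at 617 against 404 CPM and 710 against 412 CPM. The rule's limit on interferon genes bears on that list.

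Ikzf2 (Helios), a transcription factor typical of thymus-derived Tregs, was lower in marker-bearing cells. It stood at 353 CPM in marker-bearing cells and 766 CPM in other cells of CD25WT, and at 851 and 1644 CPM in CD25KO. The log2 ratios were -1.12 (-1.22 to -1.01) and -0.95 (-1.04 to -0.86), and -1.07 and -0.90 when cells were compared within strata of depth. Both sets of cells had more Ikzf2 in CD25KO, yet the marker-bearing cells were lower in either library. Similar cells that missed the rule, described below for cluster 3, were about as low in CD25WT (373 CPM) and lower still in CD25KO (366 CPM). Ikzf2 was detected in 49.2% of marker-bearing and 69.6% of other cells in CD25WT, and in 63.6% and 86.6% in CD25KO. Of 17 Treg identity genes, 4 were 1.5-fold lower in both libraries (Ikzf2, Ikzf4, Tnfrsf4 and Tnfrsf9) and 1 was higher (Socs2); 1.77% of all genes were that much lower in both. Foxp3 itself stood at 38.5 against 33.9 CPM and at 18.7 against 21.8 CPM, with intervals of the ratio across 0.

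Follicular regulatory genes were lower in marker-bearing cells, and about as low in similar cells that missed the rule, as given below for cluster 3. This list holds genes of Tregs that enter B cell follicles, and of its 11 measured members all 11 were below 0 and 9 were at least 1.5-fold lower in both libraries. Of all genes, 1.77% were that much lower in both. Several members rested on few UMIs in CD25WT marker-bearing cells: Il4 on 1, Asb2 on 2, Il1r2 on 4, Angptl2 on 6, Tox2 on 10 and Bcl6 on 13. The list's medians were -1.40 in CD25WT and -1.44 in CD25KO. They depend on the cells chosen. When the rule was applied to thinned cells (91 and 72 cells), the medians were 0 and -0.88. With at least 3 markers (63 and 20 cells) the medians were -0.71 and -0.63. A sum of 0 was set to 3 UMIs, and a ratio to 0 where that floor exceeded the level in other cells. The median of 0 is set by that floor, so it does not measure the difference. Pdcd1, which encodes the inhibitory receptor PD-1, stood at 15.5 against 41.1 CPM and at 28.0 against 103 CPM, ratios of -1.40 (-1.95 to -0.91) and -1.88 (-2.42 to -1.39). Sostdc1, a secreted antagonist of BMP and Wnt signals, stood at 1.41 against 30.8 CPM and at 16.1 against 99.7 CPM. It rested on 3 UMIs in the CD25WT marker-bearing cells, and on 19 UMIs, 11 of them from 1 cell, in CD25KO. Tox, a transcription factor with more UMIs, had ratios of -0.72 (-0.95 to -0.50) and -0.71 (-1.0 to -0.43). Of the 2 genes that did not reach 1.5-fold in both libraries, Sh2d1a and Cxcr5, the follicle-homing receptor Cxcr5 was at -0.23 (-0.92 to 0.39) and -0.26 (-1.05 to 0.43). Bcl6, the factor that defines follicular cells, was lower at full depth (-1.18 and -1.22) but at 0.72 and 0.21 when the rule was applied to thinned cells.

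Genes of T cell receptor stimulation leaned the same way, more so in CD25KO. Of 15 measured, 12 were below 0, and 4 (CD25WT) and 10 (CD25KO) were 1.5-fold lower, where 5.01% and 10.2% of all genes were. The 4 that were lower in both were Egr2, Cd83, Nr4a1 and Tnfrsf9. Nr4a1 rested on 20 UMIs in CD25WT marker-bearing cells, 18 of them from 1 cell, and on 4 UMIs in CD25KO. Egr2 rested on 6 and 5 UMIs. The medians were -0.36 and -0.99. Egr2, a factor induced within hours of receptor engagement, stood at 2.82 against 12.5 CPM and at 4.24 against 29.0 CPM. Cd83 stood at 8.93 against 30.7 CPM and at 24.6 against 80.7 CPM. Cd69, an early surface marker of activation, barely differed, at -0.07 (-0.22 to 0.08) and -0.10 (-0.35 to 0.14).

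Il2ra and Socs2, of the interleukin-2 pathway, were higher in marker-bearing cells of both libraries, but the list of interleukin-2 and STAT5 genes was not. Il2ra, the gene deleted in CD25KO, stood at 175 against 122 CPM in CD25WT and at 60.2 against 31.4 CPM in CD25KO, ratios of 0.52 (0.37 to 0.68) and 0.94 (0.57 to 1.29). The labels do not give the position of the deleted stretch, and 3' reads outside it would not check the deletion. The signalling chains Il2rb and Il2rg had ratios of -0.03 (-0.19 to 0.12) and -0.10 (-0.23 to 0.03) in CD25WT and -0.38 (-0.60 to -0.16) and -0.14 (-0.31 to 0.02) in CD25KO. Socs2, an inhibitor induced through STAT5, stood at 99.1 against 32.7 CPM in CD25WT and at 34.8 against 19.4 CPM in CD25KO, ratios of 1.60 (1.38 to 1.82) and 0.84 (0.35 to 1.30). In the 186 CD25KO cells with exactly 2 markers the Socs2 ratio was 0.34 (-0.28 to 0.91). The 20 cells with at least 3 markers gave 15 of the 41 UMIs there. Cish, the other classical STAT5-induced member of the family, did not follow, at 0.15 (-0.13 to 0.42) and -0.12 (-0.60 to 0.32). Of 21 interleukin-2 and STAT5 genes in all, 1 was 1.5-fold higher (Socs2) and 4 lower (Bcl2l1, Tnfrsf9, Tnfrsf4 and Nfil3) in both libraries. Over all genes 0.901% were that much higher and 1.77% lower in both. Of the 21, 4 were above 0 and 10 below 0 in both. Socs1, the inhibitor of interferon receptors, had -0.03 (-0.23 to 0.17) in CD25WT and 0.84 (0.61 to 1.06) in CD25KO, but the CD25KO value was -0.40 with at least 3 markers and -0.26 without Socs3 in the rule.

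Of 11 receptor chains for gp130 cytokines, interleukin-10, interleukin-12 and interferons, 1 was 1.5-fold higher in both libraries. Il10ra, the interleukin-10 receptor, was that much higher in both libraries, at 26.8 against 12.9 CPM and at 28.0 against 18.0 CPM, ratios of 1.05 (0.63 to 1.45) and 0.64 (0.09 to 1.14). Il6ra, the binding chain for interleukin-6, had 0.38 (0.19 to 0.58) and 0.78 (0.47 to 1.07), whereas its partner Il6st (gp130) had -0.02 (-0.30 to 0.24) and 0.38 (0.04 to 0.70). Ifngr1, the binding chain of the interferon-gamma receptor, was higher only in CD25WT, at 0.77 (0.62 to 0.91) against 0.01 (-0.23 to 0.23), and the interval of that difference did not include 0 (-0.76, -1.03 to -0.49). Of 19 STAT3 and gp130 responsive genes other than Socs3, only Jun, an AP-1 subunit, was higher in both, at 0.84 (0.60 to 1.08) and 1.75 (1.30 to 2.17). Of 11 JAK and STAT genes none was 1.5-fold higher in both and 1 was lower, Stat5a, a transducer of interleukin-2 signals, at -0.62 (-1.22 to -0.07) and -0.65 (-1.39 to 0.00), though at 0.25 in CD25WT when the rule was applied to thinned cells.

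Further genes that were higher in both libraries included Arl5c (0.93 and 0.96), Thada (0.97 and 0.89), the lymphoid factor Ikzf3 (0.79 and 0.88), the lysosomal lipase Lipa (0.78 and 0.80), the lipid receptor Gpr132 (0.72 and 0.97), the selenium carrier Selenop (0.68 and 0.82) and the stress protein Sesn1 (0.67 and 0.84). On the lower side stood the effector genes Ccl5 (-3.04 and -2.66) and Nkg7 (-2.0 and -1.51), the PD-1 ligand Pdcd1lg2 (-1.21 and -1.66), the transcription factor Bhlhe40 (-1.37 and -1.31) and the tetraspanin Cd81 (-0.94 and -1.57). Each value is a log2 ratio in CD25WT and then CD25KO, with an interval that did not cross 0. In CD25WT marker-bearing cells Ccl5 rested on 10 UMIs from 5 cells, Nkg7 on 18 from 11 and Bhlhe40 on 10 from 7. Pdcd1lg2 rested on 18 UMIs in CD25WT and 16 in CD25KO, and 17 of 50 Ccl5 UMIs in CD25KO came from 1 cell. Ikzf3 changed sign in CD25KO when the rule was applied to thinned cells (-0.16).

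For Iigp1 and Ikzf2 the level followed the number of markers, which is itself the value the rule used, so the order is a description. Iigp1 stood at 88.5, 134, 273 and 437 CPM in CD25WT cells with 0, 1, 2 and at least 3 markers, and at 168, 259, 466 and 740 CPM in CD25KO. Ikzf2 went the other way, at 856, 556, 399 and 162 CPM in CD25WT and at 1729, 1413, 908 and 366 CPM in CD25KO. Cells with 1 marker, just outside the rule, thus lay between unmarked and marker-bearing cells for these genes. Their own ratios over cells with 0 markers were 0.59 (0.49 to 0.70) and 0.62 (0.54 to 0.70) for Iigp1 and -0.62 (-0.67 to -0.58) and -0.29 (-0.32 to -0.26) for Ikzf2. Socs2 followed in CD25WT, at 27.4, 41.7, 92.4 and 128 CPM. In CD25KO it stood at 17.0, 27.8, 24.6 and 122 CPM. Over cells with 0 markers, cells with 1 marker had a Socs2 ratio of 0.71 (0.46 to 0.95) there, and the level of the 20 cells with at least 3 markers rested on 15 UMIs. Pdcd1 in CD25KO also followed no such order, with ratios of -2.0 (-2.55 to -1.43) for cells with 2 markers and -1.34 (-2.97 to -0.12) for those with at least 3, the latter on 5 UMIs.

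**Figure D3:**
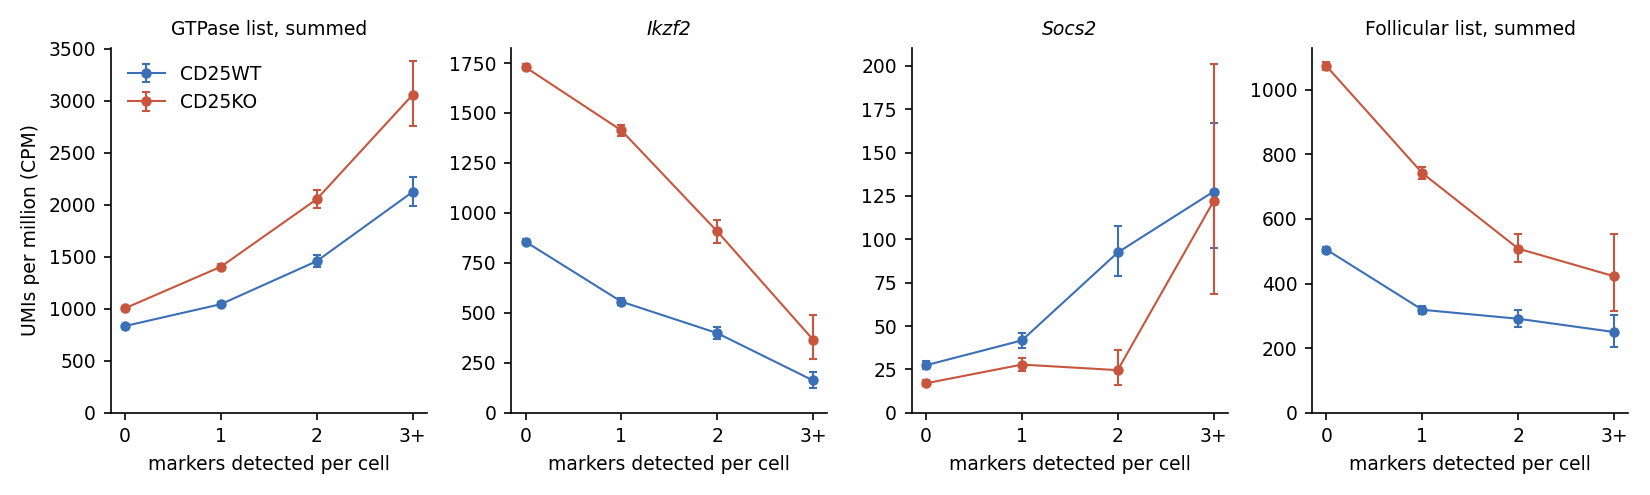
Summed level (CPM, y axis from 0) of the GTPase list, Ikzf2, Socs2 and the follicular list in cells with 0, 1, 2 or at least 3 of the 6 markers (x axis) and few interferon genes, in CD25WT (blue) and CD25KO (red); lines are 95% counting intervals. The GTPase sum is higher, and Ikzf2 and the follicular sum lower, the more markers a cell carried; Socs2 in CD25KO has no such order between 1 and 2 markers, at 27.8 and 24.6 CPM.

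Splitting the marker-bearing cells by Gbp2b and Gm4951 uses markers that are themselves GTPase genes, so the GTPase values of these subsets describe the split; Ikzf2 was lower in each of them. Among the 66 and 33 marker-bearing cells with Gbp2b, 14 and 15 of the 16 GTPases were at least 1.5-fold above other cells, with medians of 1.15 and 1.25. Among the 180 and 64 cells with neither Gbp2b nor Gm4951, 2 and 2 were, with medians of 0.20 and 0.42, and Iigp1 was at 0.39 (0.17 to 0.61) and 0.25 (-0.06 to 0.55). Ikzf2 in those same cells was at -1.17 (-1.32 to -1.03) and -0.80 (-0.95 to -0.65). No share over all genes is given beside the GTPase counts of these subsets, and small sets of cells passed 1.5-fold at more genes. With at least 3 markers (63 and 20 cells) 891 and 1216 genes were higher, against 186 and 218 for all marker-bearing cells. Among marker-bearing cells grouped by each marker they carried, Ikzf2 was lowest in those with Gbp2b, at -1.86 (-2.19 to -1.54) and -1.89 (-2.23 to -1.57), which also had the highest Socs2, at 2.40 (2.02 to 2.76) and 2.47 (1.73 to 3.13). Those with Gm4951 had the highest Iigp1, at 2.33 (2.18 to 2.48) and 1.58 (1.43 to 1.72). In CD25KO, cells with neither marker had Socs2 at -0.06 (-1.38 to 0.99), on 7 UMIs.

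Cells set aside for their interferon response had high GTPases and an Ikzf2 level closer to that of other cells. There were 300 such cells in CD25WT and 290 in CD25KO with at least 3 of the 5 interferon genes. Against cells outside both sets, all 16 GTPases were past 1.5-fold, and their medians were 1.38 and 1.32. No share over all genes is given for that contrast. Ikzf2 was at -0.17 (-0.25 to -0.09) and -0.19 (-0.25 to -0.13), intervals that do not meet those of the marker-bearing cells. Pdcd1 was at -0.60 (-1.01 to -0.21) and -0.42 (-0.67 to -0.18), and Socs2 at 0.69 (0.39 to 0.99) and -0.23 (-0.80 to 0.29). For Pdcd1 these intervals overlapped those of the marker-bearing cells in CD25WT, and the baselines of the 2 sets of ratios are not the same cells. Since the rule bounds the interferon genes of one set from above and of the other from below, their GTPase levels are set side by side as a description only.

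Clustering of both libraries without the rule's genes placed many of the marker-bearing cells in 1 cluster. Cluster 3, led by Gbp2b, Prg4, Gm4951, Iigp1, Igtp and Gbp2, held 44.1% of them in CD25WT and 47.6% in CD25KO. It made up 12.2% and 11.8% of the libraries, and 19.7% (16.9 to 22.8) and 12% (9.87 to 14.5) of its cells met the rule. Clusters led by receptor-stimulation genes such as Egr3 and Nr4a1 (cluster 7) or by follicular genes such as Sostdc1 and Il4 (cluster 8) held few: 0.767% and 0.200% of cluster 7, and 0.546% and 0.381% of cluster 8. In the neighbour graph, 17.8% and 12.8% of the 15 nearest neighbours of a marker-bearing cell were marker-bearing too, against 4.20% and 2.84% for other cells. Of the marker-bearing cells, 78 and 72 had no marker-bearing neighbour. Depth and library also shape these neighbourhoods, and their part was not tested.

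**Figure D4:**
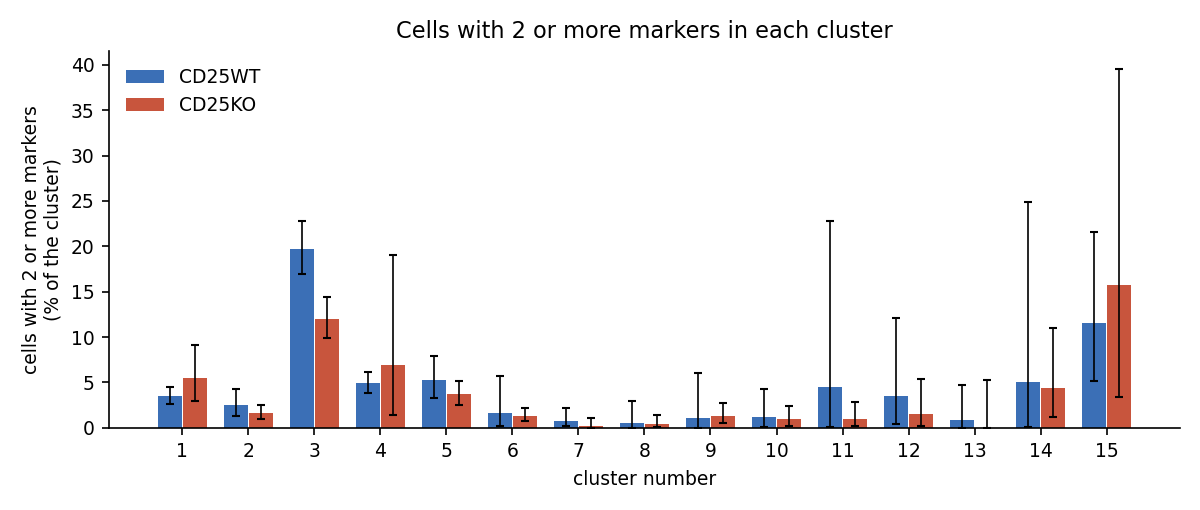
Share of each cluster's cells that met the rule (%, y axis from 0) by cluster number (x axis; the 15 clusters with the lowest numbers) in CD25WT (blue) and CD25KO (red), with exact binomial 95% intervals. Cluster 3 holds 19.7% and 12%; cluster 15, with 69 and 19 cells, is high too but has wide intervals, and clusters 7 and 8 are near 0.

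Within cluster 3 the cells that missed the rule lay between the cluster's own marker-bearing cells and other cells outside the cluster for the GTPase sum and for Ikzf2. The GTPase sum was 2376 CPM in marker-bearing and 1771 CPM in the remaining cells of the cluster in CD25WT, against 908 CPM in other cells outside it; in CD25KO these levels were 3386, 2531 and 1056 CPM. Ikzf2 stood at 159, 373 and 802 CPM in CD25WT and at 258, 366 and 1766 CPM in CD25KO. Iigp1 stood at 509, 277 and 102 CPM in CD25WT and at 827, 520 and 180 CPM in CD25KO, in the same order of cells. Socs2 differed more sharply between the cells that met the rule and the rest of the cluster, at 136 and 39.1 CPM in CD25WT and at 39.7 and 14.4 CPM in CD25KO, and its intervals did not overlap in either library. Foxp3 stood at 52.7 (37.8 to 71.4) and 29.3 (23.3 to 36.5) CPM in CD25WT and at 15.4 (6.2 to 31.8) and 21.0 (16.2 to 26.9) CPM in CD25KO. The follicular sum barely differed within the cluster. It was 289 (252 to 329) CPM in marker-bearing and 272 (253 to 293) CPM in the remaining cells in CD25WT. In CD25KO it was 273 (227 to 326) and 281 (262 to 301) CPM. Other cells outside the cluster had 463 and 1051 CPM. The receptor-stimulation sum was 613 and 720 CPM in CD25WT and 573 and 660 CPM in CD25KO, against 960 and 1098 CPM outside. Marker-bearing cells outside the cluster had a GTPase sum of 1130 and 1391 CPM and Ikzf2 at 465 and 1222 CPM. Socs3, which the rule used, stood at 65.2 and 91.8 CPM in the cells of cluster 3 that missed the rule, and at 46.9 and 38.7 CPM in other cells outside it.

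Between the libraries, marker-bearing cells differed at many genes, as other cells did. The marker-bearing cells also sat in different clusters: cluster 4, led by Lrrc32 and Il2ra, held 22.1% of them in CD25WT and 1.46% in CD25KO, cluster 1, led by Ly6c1 and Igfbp4, 16.9% and 6.31%, cluster 5, led by Rora and Il1rl1, 6.34% and 15.5%, and cluster 6, led by Lilrb4a and Ccl5, 0.604% and 7.28%. The libraries differed in the same direction as wholes, with 24.6% and 0.623% of cells in cluster 4, 26.7% and 3.46% in cluster 1, 6.58% and 12.6% in cluster 5, and 2.07% and 16.1% in cluster 6. The part of this mix in the values that follow was not tested. Past 1.5-fold, 883 of the 7009 genes that reached 10 CPM in these cells were higher in CD25KO (12.6%) and 262 lower (3.74%). In other cells the counts were 769 (10.8%) and 113 (1.59%) of 7113. The split depends on the scaling: with TMM factors it was 528 higher and 465 lower, and with median-of-ratios factors 526 and 470, and the median log2 ratio of all genes moved from 0.13 to -0.02 under both. Il2ra, the deleted gene, was lower in CD25KO by either set of cells, at 60.2 against 175 CPM in marker-bearing and 31.4 against 122 CPM in other cells, ratios of -1.54 (-1.93 to -1.17) and -1.95.

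Genes of resting central Tregs, which recirculate through lymphoid tissue, differed less between the libraries in marker-bearing than in other cells. Of 19 measured, none was 1.5-fold higher in CD25KO and 3 were lower in marker-bearing cells, where 15.3% and 6.25% of all genes were; in other cells 1 was higher and 11 lower, where 11.9% and 2.04% of all genes were. The medians were -0.20 and -0.65. Ccr7, the receptor that guides cells into lymphoid tissue, stood at 143 and 144 CPM in marker-bearing cells of CD25WT and CD25KO, but at 136 and 59.7 CPM in other cells. The chromatin organiser Satb1 stood at 163 and 179 CPM against 181 and 87.4 CPM. Differences of the log2 ratios were 1.20 (0.92 to 1.48) for Ccr7, 1.19 (0.93 to 1.44) for Satb1 and 1.10 (0.62 to 1.58) for Bach2. In the CD25KO library the marker-bearing cells thus had levels near those of CD25WT for these 3 genes, and other cells had lower levels there.

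The effector Treg list also had a smaller median difference in marker-bearing cells. Among other cells 19 of 19 were past 1.5-fold higher in CD25KO (median 1.92), and among marker-bearing cells 14 of 19 (median 1.07, which was 0.92 with TMM factors and 0.28 when the rule was applied to thinned cells). Over all genes 11.9% of other cells' and 15.3% of marker-bearing cells' ratios were that high. Maf, a transcription factor of effector and interleukin-10 producing cells, stood at 425 and 514 CPM in marker-bearing cells of CD25WT and CD25KO, and at 191 and 646 CPM in other cells. The chemokine receptor Ccr2 stood at 37.6 and 39.0 CPM against 13.7 and 53.2 CPM, but its UMIs came from only 19 of 331 marker-bearing cells in CD25WT and 14 of 206 in CD25KO. Both genes were therefore higher in marker-bearing than other cells of CD25WT and lower in CD25KO. The galectin Lgals1 stood at 412 and 509 CPM against 322 and 903 CPM. Ctla4, an inhibitory receptor of Tregs, stood at 188 and 164 CPM against 114 and 151 CPM. Il18r1, the interleukin-18 receptor, stood at 85.1 and 78.8 CPM against 35.7 and 81.5 CPM.

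**Figure D5:**
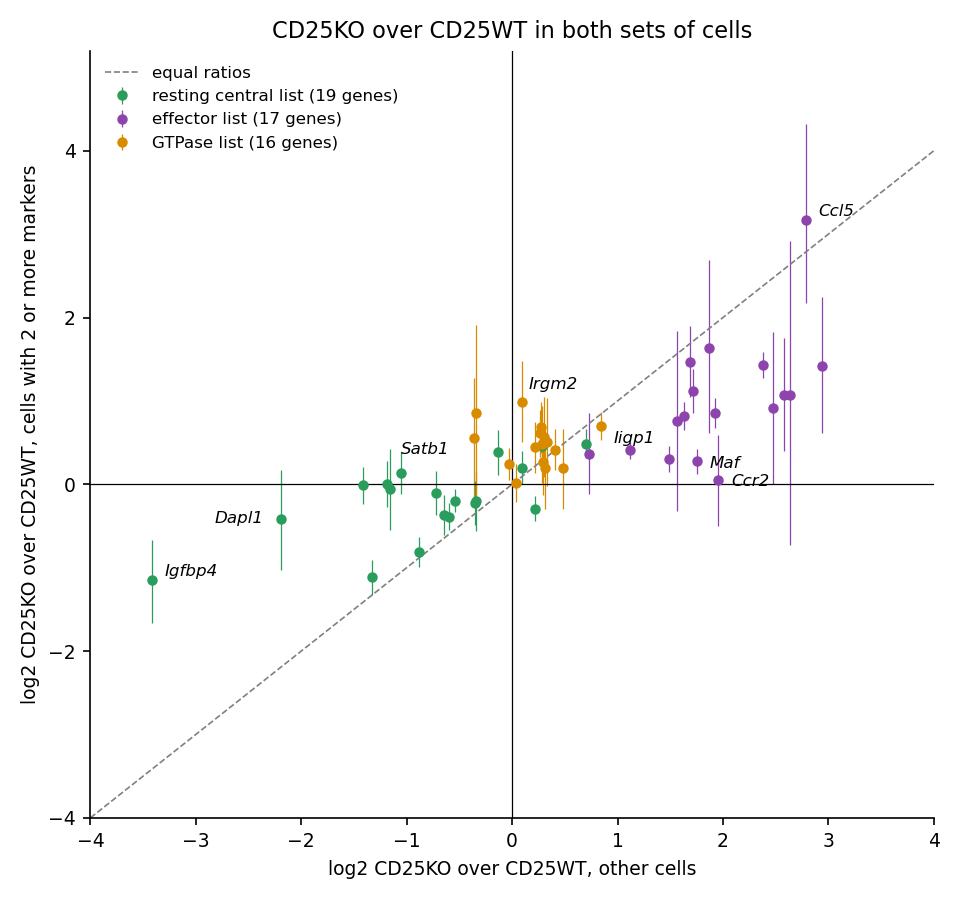
Log2 ratio of CPM in CD25KO over CD25WT in other cells (x axis) and in marker-bearing cells (y axis, with 95% counting intervals) for genes of the resting central list (green), the effector list (purple) and the GTPase list (orange); the dashed line marks equal ratios. Effector genes such as Maf and Ccr2 lie below the line and resting genes such as Dapl1 and Satb1 above it, so these genes differ less between the libraries in marker-bearing cells, while the effector gene Ccl5 lies above the line; the effector genes Gzmb and Klrg1 have no UMI in CD25WT marker-bearing cells and are not drawn.

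Among GTPases, the number past 1.5-fold higher in CD25KO was 5 of 16 in marker-bearing cells (15.3% of all genes) and 1 of 16 in other cells (11.9% of all genes). The medians were 0.50 and 0.28, against 0.13 and 0.22 over all genes, so the list in other cells was near the background. With TMM factors the median in marker-bearing cells was 0.34. Iigp1 was higher by 0.70 (0.54 to 0.86) in marker-bearing and 0.84 in other cells. Irgm2 was higher by 0.99 (0.50 to 1.48) against 0.09, and the difference was 0.90 (0.41 to 1.39). Socs2 was lower in CD25KO by both, at -1.51 (-2.03 to -1.02) and -0.75, and Socs3 itself, as a rule gene, stood at 172 and 232 CPM in marker-bearing cells.

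Some of the largest differences between the libraries rested on few cells. Ube2c and Cenpf, genes of mitosis, had ratios of 3.14 (2.42 to 3.94) and 3.41 (2.48 to 4.49) in CD25KO over CD25WT marker-bearing cells, but 60 of 93 Ube2c UMIs and 44 of 65 Cenpf UMIs came from 1 CD25KO cell. The histone genes Hist1h2ap and Hist1h2ae were lower, at -3.53 (-4.55 to -2.66) and -1.99 (-2.82 to -1.25), with 131 of 229 and 70 of 122 UMIs in 1 CD25WT cell. Plac8 had 2.44 (1.62 to 3.32), with 32 of 51 UMIs in 1 CD25KO cell. Myc, a growth-induced transcription factor, had -2.73 (-3.99 to -1.70), with 8 UMIs from 8 cells in CD25KO, but 0.34 when the rule was applied to thinned cells. Mtmr9 had -2.43 (-3.34 to -1.63) beside -2.71 in other cells. Gpr83, a Treg surface receptor, had -1.18 (-1.97 to -0.47) beside -1.51.

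Summed markers of other cell types were lower or about as high in marker-bearing cells. The summed erythroid list stood at 156 and 76.3 CPM in marker-bearing cells and 4631 and 2475 CPM in other cells; leaving out cells with over 1% haemoglobin UMIs changed the counts of called genes by less than 1.5 times. The CD8 T and natural killer list stood at 23 and 73.8 CPM against 60.4 and 179 CPM, with 9 and 6 of its 12 genes at 0, and the myeloid list at 114 and 125 CPM against 142 and 168 CPM, with 12 and 11 of 17 genes at 0. The B cell list, which the Cd79a filter bears on, stood at 323 and 458 CPM against 321 and 615 CPM, with Ms4a1 at 0 in marker-bearing cells of both libraries. Cd74, an antigen-presentation gene on that list, had a ratio of 2.67 (2.06 to 3.31) in CD25KO over CD25WT marker-bearing cells. The part of these RNAs in the differences above was not tested.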

How the data were processed

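Sorted splenic Tregs were profiled as single cells by 10x 3' sequencing, 1 library per genotype. The authors deposited UMI counts for each gene in each barcode. They come from Cell Ranger 6.0.0, per the file headers, on the build mm10, per the submitters' processing notes. No source used here says whether doublets were removed. The members, gene lists and tests were chosen with earlier results of these data known. Of 6620 and 7530 barcodes, 6051 and 6902 passed the filter on genes, mitochondrial UMIs and Cd79a. Counts were summed over cells and divided by the summed total to give CPM. Ratios carry exact conditional Poisson intervals, shares exact Clopper-Pearson intervals and differences of log2 ratios Wald intervals, all at 95% and for counting error only. A sum of 0 was set to 3 UMIs in counts and medians, and the ratio to 0 where that floor lay past the other value. Lists used genes whose mean reached 5 CPM.

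Named genes were the markers; the 15 per direction with the largest ratio, by the smaller of the libraries, at 20 CPM or more and with the same sign in 10 depth strata; the 10 per direction with the largest ratio between libraries; up to 4 of each of 26 lists; and Il2ra, Il2rb, Il2rg and Foxp3. Genes shown for single lists or contrasts beyond these were chosen after their values were seen: Gbp4, Gbp6, Gbp8, Irgm1, Irgm2, Ikzf4, Tox, Cxcr5, Sh2d1a, Cd69, Ctla4, Ifngr1, Il18r1, Il6st, Ccr7, Satb1, Bach2, Dapl1, Maf, Ccr2, Lgals1, S100a4 and S100a6. Clusters used Scanpy 1.11.5 and leidenalg 0.10.2 on 2000 variable genes, 30 principal components and 15 neighbours. Alternative scalings used edgeR 4.0.16 (TMM) and DESeq2 1.42.0 (median of ratios); no count model was fitted. The sums and intervals were run on simulated independent Poisson counts. These leave out UMIs that cluster in single cells, so that run cannot check the intervals for such genes. Gene positions come from GENCODE on GRCm38 and promoters from RefSeq on GRCm38.p6. Some genes are not reported here.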

Additional observations from a re-analysis of the deposited data

Results flagged for a closer look

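For 9 named genes the log2 ratio of marker-bearing over other cells had opposite signs in the 2 libraries, with intervals that did not cross 0 in either. With 1 library per genotype, the differences between the libraries were not tested across replicates. Effector-type genes were higher in CD25WT and lower in CD25KO: Maf at 1.15 and -0.33, the chemokine receptor Ccr2 at 1.45 and -0.45 (from 19 and 14 cells), Lgals1 at 0.36 and -0.83, the calcium-binding S100a4 at 0.57 and -0.50, S100a6 at 0.45 and -0.50, and the transcription factor Gata3 at 0.23 and -0.76. A gene of the resting central list went the other way: Igfbp4, which encodes a binding protein for insulin-like growth factors, was at -0.53 and 1.74, but at -0.84 in CD25KO when the rule was applied to thinned cells. The histone genes Hist1h2ap (0.41 and -2.15) and Hist1h2ae (0.39 and -2.59) had 131 of 229 and 70 of 122 CD25WT UMIs in 1 cell each.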

How the results depend on the processing

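No paired analysis was possible because each genotype is 1 library, which also leaves no replicate to leave out. The 2 libraries, the CD25lo gate on one of them and a rule that deeper cells meet more easily limit every comparison. The share of marker-bearing cells was higher in CD25WT under all 10 cell filters and rules run, by 1.38 to 3.59 times. It was 1.04% in CD25WT and 0.290% in CD25KO with at least 3 markers (63 and 20 cells), 2.10% and 0.826% with 5 markers without Socs3, and 1.53% and 1.10% in thinned cells (91 and 72 cells). In CD25KO it was also 4.13% at 1000 genes and 5% mitochondrial UMIs, and 3.43% with interferon cells kept.

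Counts of genes past 1.5-fold depended on how many cells and which genes entered; the values that follow are higher and lower in CD25WT, then in CD25KO. With at least 3 markers they were 891, 828, 1216 and 1663, without Socs3 656, 452, 692 and 1292, and in thinned cells 1126, 1224, 1050 and 1593. At 5 CPM they were 318, 434, 373 and 885, at 30 CPM 57, 56, 81 and 137, and with no CPM minimum 1807, 1224, 1649 and 1712. Between the libraries, genes higher and lower in CD25KO marker-bearing cells were 1883 and 1528 with at least 3 markers, 1850 and 1350 in thinned cells, 528 and 465 with TMM factors, 526 and 470 with median-of-ratios factors, 270 and 63 at 30 CPM, and 2575 and 1122 with no minimum; those lower were also 917 without Socs3, 433 without ribosomal protein and mitochondrial genes, and 507 at 5 CPM.

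Of 69 list medians over all settings, 1051 values stayed within the limits set, 28 moved and 2 changed sign. Of 258 ratios of named genes, 3501 stayed, 426 moved and 20 changed sign. A change of sign was counted only where the main value was at least 1.5-fold and, for genes, its interval did not cross 0. Smaller main values that changed sign are among those that stayed or moved. The changes of sign named below are those counted in this way. The GTPase medians ranged from 0.58 to 1.06 in CD25WT and from 0.78 to 1.5 in CD25KO over 16 settings. The follicular medians ranged from -1.52 to 0 and from -1.78 to -0.63, where the 0 was set by the floor for sums of 0 UMIs. In thinned cells, which hold few UMIs, signs changed for Bcl6 (0.72 in CD25WT and 0.21 in CD25KO over other cells), Stat5a in CD25WT over other cells (0.25), Igfbp4 (-0.84), Ikzf3 (-0.16) and Myc (0.11) in CD25KO over other cells, and between libraries for Foxp3 (0.34), Gbp4 (-0.21), Jun (0.033) and Myc (0.34). Without Socs3, they changed in CD25KO over other cells for Cenpf (-2.53), Dapl1 (-1.65) and Socs1 (-0.26), and between libraries for Ccl5 (-0.73), Ube2c (-0.053), Jun (0.23) and the cell cycle list (median -0.54). With at least 3 markers they changed for Socs1 (-0.40) in CD25KO and, between libraries, Jun (0.34) and the cell cycle list (-0.39). Without the cells in the top 5% of UMIs, Hist1h2ae was at 0.78 between libraries and Hist1h2ap at 0.42 in CD25KO. Apart from fewer cells in these settings, the cause was not tested. Leaving out cells with over 1% haemoglobin UMIs was added after seeing the data and moved none of the 8 main counts and shares past its limit.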
